A study of Mus musculus with 23 samples.

Results

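The myogenic regulatory factors and a small set of myoblast genes were read across regenerating mouse muscle: Myf5, Myod1, Myog and Myf6, which are the 4 basic helix-loop-helix (bHLH) myogenic regulatory factors, Msc (musculin), Mef2c, Cdh15 (M-cadherin) and Mymk (myomaker). They were chosen by gene symbol, and all of their probe sets on the array were taken, 12 in all. Mef2c had 5 probe sets and each of the other genes had 1. They are 8 of the 12393 genes with a probe set of a single gene, and all 8 were bright enough to be among the 11164 genes tested.

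When a muscle fiber is damaged, satellite cells, the resident stem cells of muscle, are activated and become myoblasts, which divide, leave the cell cycle, fuse and build new fibers. Myf5 and Myod1 commit cells to the muscle lineage and mark proliferating myoblasts, Myog switches on the differentiation program in committed cells, and Myf6 (Mrf4) is known as the factor that stays high in adult fibers. These factors bind DNA at the E-box motif together with E-proteins, Msc is a bHLH repressor that binds the same motif, and Mef2c is a MADS-box factor that acts with them on muscle promoters. Cdh15 is an adhesion molecule of satellite cells and myoblasts, and Mymk is a membrane protein that myoblasts need in order to fuse.

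The series profiled gastrocnemius muscle of mice in 9 groups on Affymetrix arrays, 23 arrays in all, to follow staged degeneration and regeneration without emerin or without lamin A/C, proteins of the nuclear envelope that are affected in Emery-Dreifuss muscular dystrophy. Control muscle, whose titles name it as the control of the lamin A line, was read on 2 arrays on each of days 0, 3 and 4. Emerin KO (knockout) muscle was read on 2 arrays on day 0 and on 3 arrays on each of days 3 and 4, and lamin A/C KO muscle on 3 arrays on each day. Days 3 and 4 are days after an injection. The day 0 muscle of controls and emerin KO mice is described as not injected, while that of lamin A/C KO mice is described as taken 0 days after injection. The labels name no injected agent, age or strain, and no separate control of the emerin line. Nor do they state whether each array had its own animal: p-values then measure only the spread between arrays, which may be technical.

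Signals are MAS5 values, a linear brightness per probe set, scaled so that the mean of every array without its lowest and highest 2% is 500. Differences are on the log2(signal + 32) scale, with the standard error (SE) of a limma fit over all 9 groups and p-values adjusted by Benjamini-Hochberg over the 11164 genes. Each fold is taken from such a difference, so it includes the offset of 32 and is not the ratio of mean signals. A gene is said to have passed the test, to have risen or fallen, or to be higher or lower, where its adjusted p is under 0.05. The signal of a probe set cannot be compared with that of another probe set, so levels are compared within a gene only. The share of all genes whose arrays separate between groups was not counted.

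Emd, the gene of emerin, had 587 and 770 on the control arrays of day 0 and 372 and 465 on those of emerin KO muscle, a difference that did not pass the test (adjusted p = 0.27, limma). It was lower in emerin KO muscle by 1.57 ± 0.27 (SE) on day 3 (adjusted p = 0.00047) and by 1.61 ± 0.27 on day 4 (adjusted p = 0.0017). The brightest Lmna probe set, which reads the gene of lamin A/C, had at most 109 on any lamin A/C KO array against at least 856 on any control array. The Lmna probe set 1425472_a_at had 591, 792 and 435 on the lamin A/C KO arrays of day 0, which overlap the 588 and 688 of the control arrays. It had 620 to 1039 on those of days 3 and 4 against 1893 to 2316 in control muscle. The probe set 1452212_at of the same gene had 311 to 456 on the lamin A/C KO arrays of day 3 against 11.4 and 30.5 on the control arrays. The ratio of the 3' to the 5' Gapdh control probe sets, which rises when RNA is degraded or incompletely copied, was 0.82 to 1.64 on all control and lamin A/C KO arrays and on the emerin KO arrays of day 0. It was 3.62, 4.79 and 6.09 on the emerin KO arrays of day 3, and 2.89, 1.40 and 5.30 on those of day 4. Every emerin KO value of days 3 and 4 below stands beside that ratio. On both days every emerin KO array had a higher ratio than the other genotypes, so ratio and genotype cannot be told apart there.

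The promoters of Myog and Cdh15 are shown because both genes rose after injury and both promoters hold the E-box, CANNTG. RefSeq promoter entries were found for 4 of the 8 genes (Myf5, Myog, Mef2c and Cdh15). Each line gives the 250 bases before the start, 5′ to 3′ on the strand of the gene, from RefSeq on GRCm38.p6. Capitals mark every match to CANNTG, which reads the same on both strands.

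Myog, chr1:134289754-134290003, plus strand: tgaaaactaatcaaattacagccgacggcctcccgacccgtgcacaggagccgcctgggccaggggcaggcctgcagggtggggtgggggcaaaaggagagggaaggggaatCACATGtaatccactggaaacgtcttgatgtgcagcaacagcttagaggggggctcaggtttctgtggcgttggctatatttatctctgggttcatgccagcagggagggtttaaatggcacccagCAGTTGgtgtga
Cdh15, chr8:122848124-122848373, plus strand: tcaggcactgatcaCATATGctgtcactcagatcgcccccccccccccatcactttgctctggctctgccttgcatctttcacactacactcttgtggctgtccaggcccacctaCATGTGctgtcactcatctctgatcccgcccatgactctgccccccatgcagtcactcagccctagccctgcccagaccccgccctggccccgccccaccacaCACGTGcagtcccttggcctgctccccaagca

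Myog held 2 matches, whose first bases lie at -138 and -12 from the start, and Cdh15 held 3, at -236, -135 and -32. At least 1 match was present in 66.2% of 32851 promoter windows of this length, at least 2 in 31.8% and at least 3 in 12.2%. The E-box CAGCTG was in no window of the members and in 13% of all, and CAGGTG or its reverse complement CACCTG was in no window of the members and in 17.2% of all. The Myf5 window, chr10:107486135-107486384 on the minus strand, lies inside the gene span given below and held no CANNTG. The 3 windows of Mef2c begin at chr13:83503784, 83523406 and 83573357. Those at 83523406 and 83573357 lie inside the span of that gene. The 3 windows held 2, 0 and 1 matches. These are matches of letters and were not read as binding sites. On the same build Myog lies at chr1:134290004-134292548, Cdh15 at chr8:122848374-122867397, Myod1 at chr7:46376474-46379092, Msc at chr1:14753344-14756089, Mymk at chr2:27061636-27072161 and Mef2c at chr13:83504017-83667079. Myf5 at chr10:107482908-107486927 and Myf6 at chr10:107492848-107494723 are neighbors on chromosome 10.

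**Figure D1:**
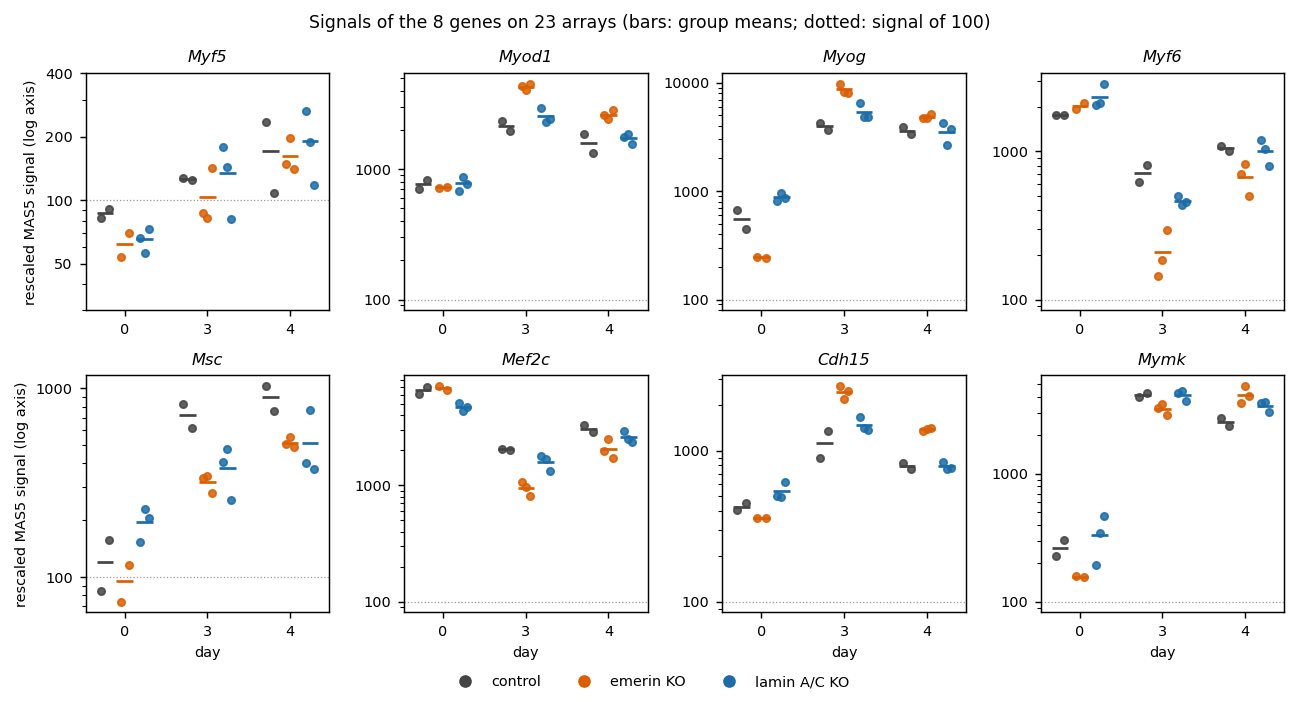
Signal of the brightest probe set of each of the 8 genes on each of the 23 arrays (points), on a log axis, by day (horizontal axis) and genotype (color); bars are group means and the dotted line is a signal of 100. Myog and Mymk rose most between day 0 and day 3, Myf6 and Mef2c were highest on day 0, and the emerin KO arrays of day 3 had the highest Myod1, Myog and Cdh15 and the lowest Myf6 and Mef2c.

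In control muscle, 5 of the 8 genes had risen by day 3 after the injection (Mymk, Myog, Msc, Myod1 and Cdh15), and Myf6 and Mef2c had fallen; Myf5 did not pass. Mymk was 14-fold and Myog 6.87-fold higher on day 3 than on day 0, and Mef2c was 3.18-fold lower. The rise to day 4 was of the same 5 genes, and the fall of the same 2. Over all genes, 20.1% rose and 14.2% fell by day 3 and 19.5% rose and 14.3% fell by day 4, and the median change over the 8 genes was 1.38 on day 3 and 0.93 on day 4 against 0.09 and 0.03 over all genes. In emerin KO muscle the same 5 genes rose and the same 2 fell by day 3, and Myf5 also rose by day 4. This stands against 23.9% of all genes that rose and 22.2% that fell by day 3, and 23.5% and 20.8% by day 4. In lamin A/C KO muscle 6 rose and 2 fell by both days, against 23.4% that rose and 19.6% that fell by day 3, and 21.0% and 18.2% by day 4. With the Gapdh ratio as a covariate, the number of genes that passed remained 7 of 8 (day 3) and 8 of 8 (day 4) in emerin KO muscle. Of all 11164 genes 2809 and 3667 passed in that fit, in place of 5144 and 4939.

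These arrays read whole muscle, so fewer cells of a type and less RNA per cell cannot be told apart. The summed signal of 18 macrophage genes was 8213 and 10970 on the control arrays of day 0 and 75290 and 79220 on those of day 3, and 17 of the 18 rose. The summed signal of 16 genes of mature fibers, such as myosins, actinins and parvalbumin, was 341100 and 356400 on day 0 and 70960 and 111800 on day 3, and all 16 fell. The summed signal of 9 neutrophil genes was 839.6 and 1127 on the control arrays of day 0, 4228 and 4605 on those of day 3 and 1665 and 2290 on those of day 4, and 4 of the 7 tested rose by day 3. The fibroblast and matrix sum was 80630 and 92520 on day 0 and 86520 and 90210 on day 3, and 4 of the 9 genes rose. Over all 23 arrays the endothelial sum (10 genes, 1 of which rose in control muscle by day 3) was 4246 to 5848, and the lymphocyte sum (11 genes, of which none of the 9 tested passed there) 935.5 to 2510. The part of these shifts in the changes of the 8 genes was not tested.

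Myf5 lay close to the signal of 100 that served as the limit for testing. Its signal in control muscle was 82.4 and 91.2 on day 0, 128 and 125 on day 3 and 235 and 108 on day 4. In emerin KO muscle it was 53.5 and 70.2 on day 0, 86.7, 82.5 and 143 on day 3 and 149, 197 and 141 on day 4. In lamin A/C KO muscle it was 66.4, 56.4 and 72.5 on day 0, 179, 143 and 81.2 on day 3 and 264, 188 and 118 on day 4. Every array of day 0 was under 100, and the groups of days 3 and 4 overlapped within each genotype. Arrays of day 3 lay above those of day 0 in each genotype, but the change passed only in lamin A/C KO muscle (0.73 ± 0.29, adjusted p = 0.047, limma), where it no longer passed without any 1 of 5 of the 6 arrays (adjusted p = 0.064 to 0.20). On day 4 it rose by 1.05 ± 0.33 in emerin KO muscle (adjusted p = 0.012) and by 1.14 ± 0.29 in lamin A/C KO muscle (adjusted p = 0.0033). In control muscle the change was 0.70 ± 0.36 (adjusted p = 0.15). The rise in emerin KO muscle no longer passed without emerin KO day 0 replicate 1 (adjusted p = 0.081). The control change passed without control day 4 replicate 2 (adjusted p = 0.040).

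Myod1 did not pass between genotypes on day 0, and its signal was highest in emerin KO muscle on day 3. The control arrays had 708 and 826 on day 0, 2339 and 1947 on day 3 and 1873 and 1321 on day 4. The emerin KO arrays had 721 and 733 on day 0, 4326, 4038 and 4505 on day 3 and 2592, 2423 and 2846 on day 4. The lamin A/C KO arrays had 678, 878 and 775 on day 0, 2957, 2306 and 2439 on day 3 and 1757, 1878 and 1556 on day 4. On days 3 and 4 every emerin KO array lay above every control array and every lamin A/C KO array, while lamin A/C KO and control arrays overlapped on all 3 days. Myod1 rose by 1.44 ± 0.17 in control, 2.51 ± 0.16 in emerin KO and 1.68 ± 0.14 in lamin A/C KO muscle by day 3 (adjusted p = 9.4e-07, 3.4e-11 and 3e-09, limma). In order of mean signal, emerin KO day 3 stood first and apart from all others, emerin KO day 4, lamin A/C KO day 3 and control day 3 overlapped as neighbors, and the 3 groups of day 0 were last.

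Myog had the widest range of the 8 genes, with a group mean on emerin KO day 3 that was 35.4 times that of emerin KO day 0. In control muscle it had 665 and 448 on day 0, 4263 and 3639 on day 3 and 3895 and 3351 on day 4. In emerin KO muscle it had 248 and 242 on day 0, 9729, 8292 and 8004 on day 3 and 4677, 4766 and 5098 on day 4. In lamin A/C KO muscle it had 818, 953 and 873 on day 0, 6528, 4867 and 4868 on day 3 and 4232, 2671 and 3717 on day 4. The emerin KO arrays were thus the lowest of the 3 genotypes on day 0 and the highest on day 3, with no overlap with control or lamin A/C KO muscle on either day. Myog rose by 2.78 ± 0.20 in control, 4.97 ± 0.18 in emerin KO and 2.57 ± 0.17 in lamin A/C KO muscle by day 3 (adjusted p = 9.5e-10, 3.9e-14 and 5.4e-11, limma). It was the gene with the largest fold in emerin KO muscle on that day (31.3-fold), while Mymk had the largest in the other 2 genotypes.

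Myf6 moved the other way. Its signal on the control arrays was 1759 and 1756 on day 0, 621 and 806 on day 3 and 1085 and 1009 on day 4. On the emerin KO arrays it was 1947 and 2109 on day 0, 145, 185 and 296 on day 3 and 706, 816 and 500 on day 4. On the lamin A/C KO arrays it was 2051, 2130 and 2849 on day 0, 498, 433 and 454 on day 3 and 1201, 1041 and 793 on day 4. In each genotype all arrays of day 0 lay above those of day 4, and those of day 4 above those of day 3. Myf6 fell by day 3, with changes of -1.27 ± 0.25 in control, -3.15 ± 0.23 in emerin KO and -2.25 ± 0.21 in lamin A/C KO muscle (adjusted p = 0.00036, 2.7e-10 and 9.6e-09, limma). With the Gapdh ratio as a covariate the change in emerin KO muscle was -2.39 ± 0.36 (adjusted p = 3.9e-05). On day 4 the change in control muscle was -0.73 ± 0.25 (adjusted p = 0.029). It no longer passed without any 1 of the 4 control arrays compared (adjusted p = 0.074 to 0.13).

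Msc rose in each genotype and had its highest group means in control muscle on days 4 and 3. The control arrays had 84.0 and 156 on day 0, 828 and 615 on day 3 and 1027 and 763 on day 4. Those of emerin KO muscle had 74.0 and 116 on day 0, 334, 343 and 279 on day 3 and 505, 552 and 487 on day 4. Those of lamin A/C KO muscle had 154, 228 and 206 on day 0, 409, 476 and 256 on day 3 and 401, 766 and 373 on day 4. On day 3 both control arrays lay above all 6 knockout arrays, and on day 4 they lay above all emerin KO arrays but overlapped with lamin A/C KO, whose replicate 2 was at 766. Of these differences from control only that of emerin KO on day 3 passed the test. Msc rose by 2.33 ± 0.32 in control, 1.48 ± 0.29 in emerin KO and 0.83 ± 0.26 in lamin A/C KO muscle by day 3 (adjusted p = 4.2e-06, 0.00019 and 0.012, limma). The last of these no longer passed without lamin A/C KO day 0 replicate 1 (adjusted p = 0.064) or day 3 replicate 2 (adjusted p = 0.074).

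Mef2c fell in each genotype. By the brightest probe set, 1424852_at, the control arrays had 6168 and 6953 on day 0, 2064 and 2009 on day 3 and 3297 and 2866 on day 4. Emerin KO muscle had 7135 and 6551 on day 0, 1066, 975 and 812 on day 3 and 1978, 2484 and 1730 on day 4. Lamin A/C KO muscle had 5077, 4347 and 4746 on day 0, 1773, 1673 and 1343 on day 3 and 2965, 2486 and 2367 on day 4. All arrays of day 3 were below those of day 4, and those of day 4 below those of day 0, within each genotype, and emerin KO day 3 was the lowest of the 9 groups. The change by day 3 was -1.67 ± 0.18 in control, -2.81 ± 0.16 in emerin KO and -1.55 ± 0.14 in lamin A/C KO muscle (adjusted p = 1.6e-07, 8.3e-12 and 1.2e-08, limma). With the Gapdh ratio as a covariate it was -2.35 ± 0.25 in emerin KO muscle (adjusted p = 1.1e-06).

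The other 4 Mef2c probe sets were tested in a fit over 17771 probe sets. All 5 differed in the same direction on day 3 against day 0 in each genotype, and all passed in emerin KO and lamin A/C KO muscle; in control muscle 4 passed, and 1421027_a_at had a change of -0.71 ± 0.33 (adjusted p = 0.11, limma). Between emerin KO and control muscle on day 3, 1424852_at and 1421028_a_at passed (-1.08 ± 0.16 and -0.94 ± 0.16, adjusted p = 0.00016 and 0.00039), while the other 3 had differences of -0.58 to -0.86 and adjusted p of 0.066 to 0.22. Probe sets ending in _a_at can read several transcripts of a gene.

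**Figure D2:**
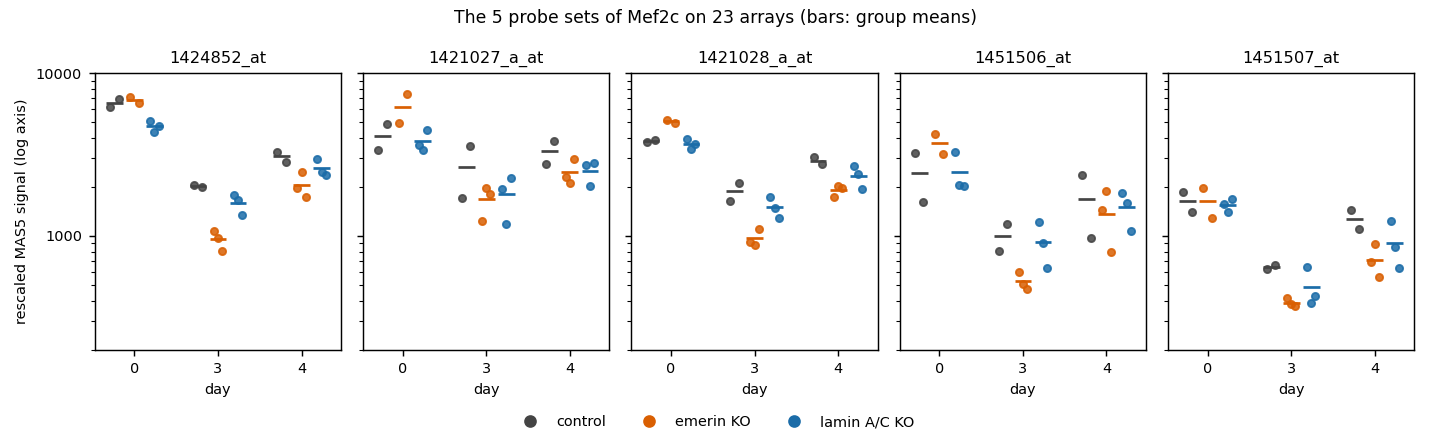
Signal of the 5 Mef2c probe sets on each array (points; log axis) by day and genotype, with group means as bars. Each probe set was lower on day 3 than on day 0 by its group means in every genotype, for example 6560, 2036 and 3082 on days 0, 3 and 4 in control muscle for 1424852_at.

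Cdh15 rose in each genotype. The control arrays had 402 and 447 on day 0, 898 and 1344 on day 3 and 824 and 758 on day 4. Emerin KO muscle had 360 and 359 on day 0, 2676, 2207 and 2481 on day 3 and 1343, 1397 and 1413 on day 4. The lamin A/C KO arrays had 498, 493 and 621 on day 0, 1668, 1414 and 1361 on day 3 and 846, 755 and 769 on day 4. The emerin KO arrays of days 3 and 4 lay above all control and lamin A/C KO arrays of the same day, and those of day 0 lay below them. The day 0 difference from control did not pass the test. Cdh15 rose by 1.31 ± 0.17 in control, 2.66 ± 0.16 in emerin KO and 1.41 ± 0.14 in lamin A/C KO muscle by day 3 (adjusted p = 3.2e-06, 1.3e-11 and 3.7e-08, limma).

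Mymk, the fusion gene, rose steeply everywhere. The control arrays had 228 and 302 on day 0, 3955 and 4254 on day 3 and 2730 and 2378 on day 4. The emerin KO arrays had 157 and 155 on day 0, 3276, 3539 and 2902 on day 3 and 3550, 4844 and 4029 on day 4. The lamin A/C KO arrays had 193, 345 and 464 on day 0, 4317, 4421 and 3736 on day 3 and 3562, 3630 and 3024 on day 4. On day 4 all 6 knockout arrays lay above both control arrays, and on day 3 the emerin KO arrays lay below all others. None of these differences between genotypes passed the test. Against control, emerin KO had -0.34 ± 0.22 on day 3 and 0.68 ± 0.22 on day 4, and lamin A/C KO 0.41 ± 0.22 on day 4. By day 3 the rise was 3.81 ± 0.24 in control, 4.11 ± 0.22 in emerin KO and 3.59 ± 0.20 in lamin A/C KO muscle (adjusted p = 1.4e-10, 3.4e-12 and 6.9e-12, limma). By day 4 the rise in emerin KO muscle was 22.0-fold.

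**Figure D3:**
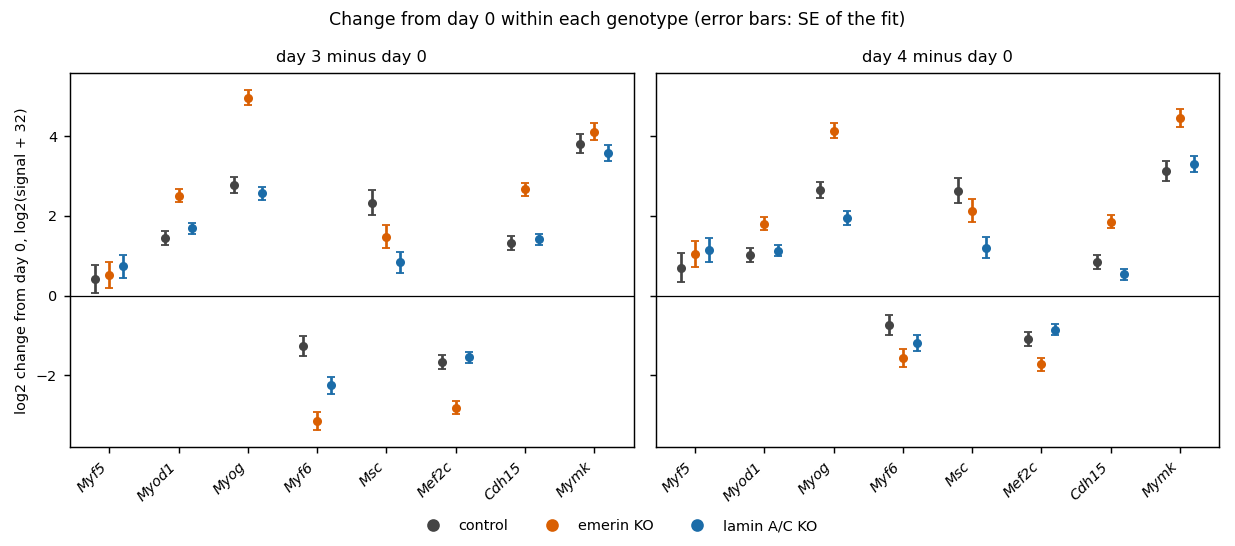
Change from day 0 on day 3 (left) and day 4 (right) in log2(signal + 32) for each gene (horizontal axis) and genotype (color); points are fitted changes and error bars are their SE. The emerin KO points of Myog (4.97), Myod1 (2.51) and Cdh15 (2.66) lie above, and those of Myf6 (-3.15) and Mef2c (-2.81) below, the control and lamin A/C KO points on day 3.

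Between day 3 and day 4, Myf6 and Mef2c rose and Cdh15 and Myod1 fell in both knockouts, while Myog fell in emerin KO muscle. In emerin KO muscle Myf6 rose by 1.57 ± 0.21 and Mef2c by 1.09 ± 0.14, while Myog fell by 0.83 ± 0.17, Cdh15 by 0.81 ± 0.14 and Myod1 by 0.71 ± 0.14 (adjusted p = 0.00011, 0.00013, 0.0091, 0.0028 and 0.011, limma). Of all genes 0.958% rose and 0.215% fell. Without the 2 emerin KO day 4 arrays with a ratio over 2, which leaves 1 array in that group, Myog and Cdh15 did not pass. That cannot be told apart from the loss of arrays. Myog also failed to pass without emerin KO day 3 replicate 1 or day 4 replicate 1 (adjusted p = 0.059 and 0.054), as did Myod1 without emerin KO day 4 replicate 1 or 2 (0.054 and 0.06). Fitting the Gapdh ratio as a covariate left all 5 past the test, and 101 genes in all passed in place of 131. In lamin A/C KO muscle Myf6 rose by 1.06 ± 0.21 and Mef2c by 0.70 ± 0.14, and Cdh15 fell by 0.88 ± 0.14 and Myod1 by 0.56 ± 0.14 (adjusted p = 0.0081, 0.012, 0.0018 and 0.045). Of all genes 1.29% rose and 0.752% fell. Myod1 did not pass without any 1 of the 6 arrays (adjusted p = 0.058 to 0.16), nor did Mef2c without lamin A/C KO day 3 replicate 3 or day 4 replicate 1 (0.1 and 0.067). After a Gapdh covariate was added Cdh15 passed (-0.91 ± 0.16, adjusted p = 0.0093), and Myf6 (0.82 ± 0.21), Mef2c (0.55 ± 0.15) and Myod1 (-0.54 ± 0.16) did not (adjusted p = 0.088, 0.11 and 0.17). There 53 genes in all passed in place of 228. Myog, at -0.62 ± 0.17 with all arrays (adjusted p = 0.05), passed without day 4 replicate 1 (0.036). In control muscle none of the 8 passed, and 0.0448% of all genes passed. At an unadjusted p under 0.05 (limma) there were 5 of the 8 and 531 of the 11164 genes. Mymk, Cdh15 and Myod1 had changes of -0.68 ± 0.24, -0.46 ± 0.17 and -0.43 ± 0.17. The changes of Mef2c and Myf6 were 0.59 ± 0.18 and 0.54 ± 0.25 (adjusted p = 0.52 and 1). None of the 8 passed a test of whether the change from day 3 to day 4 differed between a knockout and control muscle. In that test 0.0448% of all genes passed for emerin KO and 0.00896% for lamin A/C KO. At an unadjusted p under 0.05 (limma) there were 4 and 0 of the 8, and 787 and 651 of the 11164 genes.

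Before injury, emerin KO muscle had lower Myog than control muscle, by 1.06 ± 0.20 or 2.09-fold (adjusted p = 0.0034, limma), and the other 7 genes did not pass. The control is that of the lamin A line, so loss of emerin and a difference between lines cannot be told apart on any day. Of all genes 2.03% were lower and 1.23% higher. The call rests on few arrays: without control day 0 replicate 1 the difference was -0.79 and did not pass (adjusted p = 0.11). Against lamin A/C KO muscle, emerin KO muscle of day 0 had lower Myog (-1.72 ± 0.18, adjusted p = 2.9e-06), Mymk (-0.89 ± 0.22, adjusted p = 0.016) and Cdh15 (-0.53 ± 0.16, adjusted p = 0.046). Of all genes 4.18% were lower and 2.11% higher. Cdh15 no longer passed without any 1 of the 5 arrays compared, nor did Mymk without any of them but lamin A/C KO replicate 1. The day 0 muscle of lamin A/C KO mice is described as injected, so genotype and injection cannot be told apart there. None of the 8 genes passed between lamin A/C KO and control muscle of day 0, where 0.896% of all genes passed. At an unadjusted p under 0.05 (limma) there were 3 of the 8 and 1152 of the 11164 genes. The Myog difference was 0.66 ± 0.18 (adjusted p = 0.11).

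On day 3, emerin KO muscle had higher Cdh15, Myog and Myod1 and lower Myf6, Msc and Mef2c than control muscle. Cdh15 was 2.19-fold, Myog 2.18-fold and Myod1 1.99-fold higher (1.13 ± 0.16, 1.13 ± 0.18 and 0.995 ± 0.159; adjusted p = 7.3e-05, 0.00031 and 0.00024, limma). Myf6 was 3.18-fold, Msc 2.13-fold and Mef2c 2.12-fold lower (-1.67 ± 0.23, -1.09 ± 0.29 and -1.08 ± 0.16; adjusted p = 6.9e-05, 0.012 and 0.00015). Over all genes 7.38% were higher and 8.92% lower. Myf5 (-0.25 ± 0.33) and Mymk (-0.34 ± 0.22) did not pass (adjusted p = 0.70 and 0.35). Msc no longer passed without control day 3 replicate 1 (adjusted p = 0.15).

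These 6 differences run with the Gapdh ratio, which was over 3.6 on each emerin KO array and under 1 on each control array of day 3. Ratio and genotype cannot be told apart on this day, as the effect of the ratio is fitted only from the spread within groups. With the ratio as a covariate none of the 8 passed, 5 had an unadjusted p under 0.05 (limma), and 9 genes in all passed in place of 1820. The difference for Cdh15 was then 1.24 ± 0.29 (adjusted p = 0.098), for Myog 1.15 ± 0.35 (0.24) and for Myod1 0.95 ± 0.30 (0.27). For Myf6 it was -0.84 ± 0.38, for Mef2c -0.57 ± 0.27 and for Msc -0.96 ± 0.55 (adjusted p = 0.52, 0.54 and 0.68). The estimates of Cdh15, Myog and Myod1 thus moved by less than 0.15 while their SE rose, and those of Myf6 and Mef2c moved toward 0. The summed signal of the 16 fiber genes was 54050 to 65600 on the emerin KO arrays against 70960 and 111800 on the control arrays, with 4 of the 16 lower. That of 9 fibroblast and matrix genes was 53800 to 63850 against 86520 and 90210, with 4 of 9 lower. That of the 18 macrophage genes was 82010 to 92590 against 75290 and 79220, with 4 higher and 1 lower. The neutrophil sum was 2422 to 3346 against 4228 and 4605, and the endothelial sum 4246 to 4900 against 4811 and 4836. The lymphocyte sum was 1529 to 2510 against 1136 and 1250, with 6 of its 11 genes under 100 on both control arrays. The part of RNA quality and of these cell types in the differences was not tested beyond the covariate.

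On day 4, 3 of the 6 genes that differed between emerin KO and control muscle on day 3 were again past the test: Cdh15 was higher by 0.78 ± 0.16 and Myod1 by 0.72 ± 0.16, and Mef2c was lower by 0.58 ± 0.16 (adjusted p = 0.0055, 0.011 and 0.036, limma). Of all genes 2.58% were higher and 3.29% lower. Myog, Mymk, Myf6 and Msc had differences of 0.42 ± 0.18, 0.68 ± 0.22, -0.64 ± 0.23 and -0.75 ± 0.29; these 4 did not pass (adjusted p = 0.069 to 0.19). With the ratio as a covariate none of the 8 passed and 3 had an unadjusted p under 0.05 (limma), and 20 genes in all passed in place of 655. Leaving out the 2 emerin KO arrays with a ratio over 2 leaves 1 array in that group. Cdh15, Myod1 and Mef2c did not pass there, which cannot be told apart from the loss of arrays. The Cdh15 difference was 0.80 without the 2 arrays and 0.85 ± 0.22 with the covariate (adjusted p = 0.15, limma). With the covariate Myod1 had 0.69 ± 0.22 and Mef2c -0.28 ± 0.20 (adjusted p = 0.28 and 0.80). The Mef2c estimate thus moved toward 0, as did that of Myf6 (-0.14 ± 0.28). The summed signal of the fiber genes was 91560 to 95490 on the emerin KO arrays of day 4 against 121600 and 133900 on the control arrays, with 4 of 16 lower, and 3 of the 18 macrophage genes were higher; the fibroblast and matrix sum was 70640 to 77540 against 86220 and 100500, with 2 of 9 lower. The part of these markers was not tested. None of the 8 passed without control day 4 replicate 2, and 1 passed without control day 4 replicate 1 (Myod1) or emerin KO day 4 replicate 3 (Cdh15). Mef2c also did not pass without emerin KO day 4 replicate 1 (adjusted p = 0.11), and without emerin KO day 4 replicate 2 Myf6 passed as well (-0.78, adjusted p = 0.044).

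Against lamin A/C KO muscle on day 3, emerin KO muscle had higher Myod1 (0.74 ± 0.14), Cdh15 (0.72 ± 0.14) and Myog (0.68 ± 0.17) and lower Myf6 (-1.08 ± 0.21) and Mef2c (-0.73 ± 0.14), with adjusted p of 0.0021 to 0.011 (limma). Of all genes 3.96% were higher and 5.99% lower. The fibroblast and matrix sum was 53800 to 63850 on the emerin KO arrays of day 3 against 77680 to 91810 on those of lamin A/C KO muscle, with 4 of 9 genes lower, and 70640 to 77540 against 94040 to 105900 on day 4, with 3 of 9 lower. Of the 16 fiber genes 2 were lower on day 3 and 2 higher on day 4, and of the 18 macrophage genes 2 were higher and 2 lower on day 3 and 2 higher and 1 lower on day 4. The part of these markers was not tested. The Myog difference did not pass without emerin KO day 3 replicate 1 or lamin A/C KO day 3 replicate 2 (adjusted p = 0.055 and 0.063). On day 4 Cdh15 (0.79 ± 0.14, adjusted p = 0.00096) and Myod1 (0.59 ± 0.14, adjusted p = 0.0073) passed, where 8.40% were higher and 8.02% lower. With the Gapdh ratio as a covariate none of the 8 passed on either day, with 3 and 2 at an unadjusted p under 0.05 (limma), and 30 and 13 genes in all passed. On day 3 the differences for Myod1, Myog and Cdh15 were then 0.70 ± 0.24, 0.70 ± 0.28 and 0.80 ± 0.24, near those without it, and those for Myf6 and Mef2c were -0.44 ± 0.31 and -0.34 ± 0.22. On day 4 Cdh15 had 0.87 ± 0.23 and Myod1 0.55 ± 0.23. Without the 2 emerin KO day 4 arrays with a ratio over 2, which leaves 1 array in that group, Cdh15 and Myod1 did not pass on day 4. That cannot be told apart from the loss of arrays. Without emerin KO day 4 replicate 2, the day 4 array with a ratio of 1.40, 4 passed, with Myf6 and Mef2c lower (adjusted p = 0.027 and 0.025). Myog passed without lamin A/C KO day 4 replicate 1 (0.029) and Myf6 without lamin A/C KO day 4 replicate 3 (0.041).

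Lamin A/C KO muscle did not differ from control muscle in any of the 8 genes past the test on days 3 and 4. There 0.0269% and 0.0448% of all genes passed. At an unadjusted p under 0.05 (limma) there were 5 and 1 of the 8, and 809 and 540 of the 11164 genes. The 95% intervals of the differences on day 3 were -0.08 to 0.59 for Myod1, 0.06 to 0.83 for Myog, -1.07 to -0.11 for Myf6 and -1.49 to -0.30 for Msc. Those of Myog, Myf6 and Msc lie on 1 side of 0 before adjustment over all genes, as do those of Cdh15 and Mef2c. These 5 differences had the same direction as the emerin KO differences from control muscle on day 3. The differences from the same 2 control arrays that served for emerin KO muscle on day 3 were 0.26 ± 0.16 for Myod1, 0.44 ± 0.18 for Myog, 0.41 ± 0.16 for Cdh15 and -0.36 ± 0.16 for Mef2c (adjusted p = 0.54 to 0.78). Myf6 was -0.59 ± 0.23 and Msc -0.90 ± 0.29 (adjusted p = 0.57 and 0.46).

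**Figure D4:**
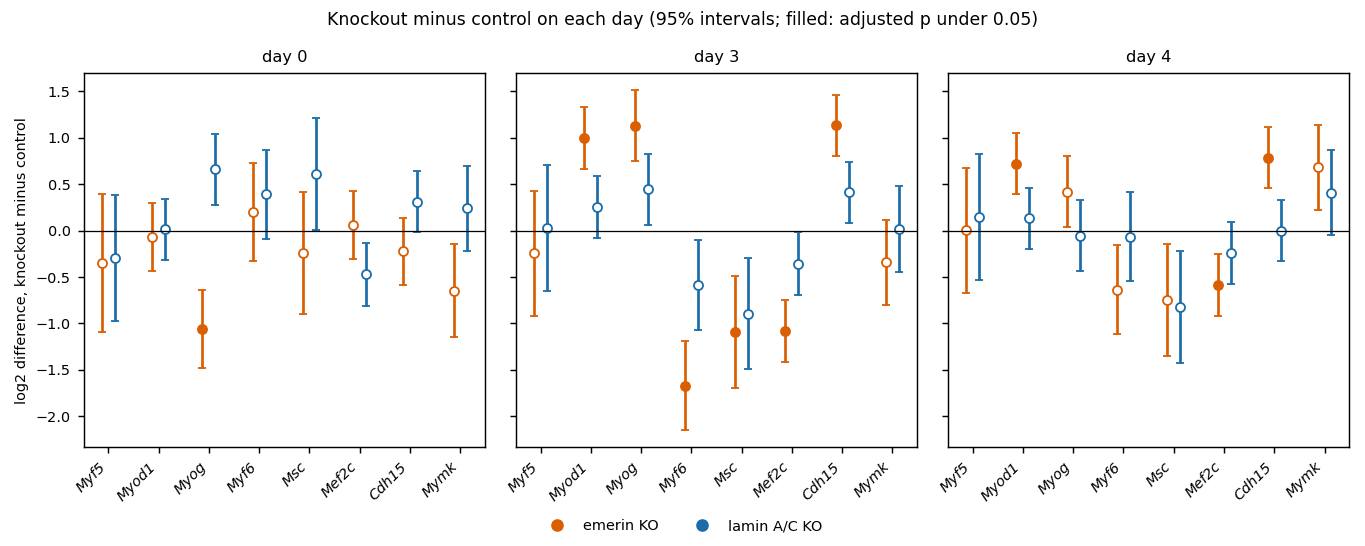
Knockout minus control difference in log2(signal + 32) for each gene on days 0, 3 and 4; points are fitted differences, bars are 95% intervals, and filled points passed an adjusted p under 0.05. The filled emerin KO points are Myog (-1.06) on day 0, 6 genes from Myf6 (-1.67) to Cdh15 (1.13) on day 3, and Mef2c, Myod1 and Cdh15 on day 4; no lamin A/C KO point is filled.

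The change from day 0 was itself compared between emerin KO and control muscle. By day 3, Myog rose by 2.19 ± 0.27 more in emerin KO muscle, Cdh15 by 1.35 ± 0.23 more and Myod1 by 1.07 ± 0.24 more, and Myf6 and Mef2c fell further (-1.87 ± 0.34 and -1.14 ± 0.24), with adjusted p of 0.00028, 0.0040, 0.019, 0.0065 and 0.014 (limma). Of all genes 1.42% had a higher and 1.22% a lower change. With the Gapdh ratio as a covariate Myog alone passed (2.20 ± 0.37, adjusted p = 0.016), while Cdh15 (1.45 ± 0.31) and Myod1 (1.02 ± 0.32) had estimates near those without it and larger SE (adjusted p = 0.084 and 0.25). In that fit 16 genes in all passed in place of 295. The estimates of Myf6 and Mef2c moved toward 0 (-1.16 ± 0.41 and -0.71 ± 0.29, adjusted p = 0.31 and 0.42). Without control day 3 replicate 2 only Myog and Cdh15 passed. Myod1 also did not pass without control day 0 replicate 2 or emerin KO day 0 replicate 2 (adjusted p = 0.089 and 0.055), nor did Mef2c without control day 0 replicate 1 (0.066). By day 4 Myog alone passed (1.48 ± 0.27, adjusted p = 0.010), where 0.358% of all genes had a higher and 0.215% a lower change. It also passed with the covariate (1.49 ± 0.31, adjusted p = 0.037), where 30 genes in all passed in place of 64. It did not pass without control day 0 replicate 1, control day 4 replicate 2 or the 2 emerin KO day 4 arrays with a ratio over 2. Each of these fits leaves 1 array in a group, so this cannot be told apart from the loss of arrays. The Myog contrast holds both the lower level on day 0 and the higher level on day 3. For lamin A/C KO none of the 8 passed, and 0.170% and 0.206% of all genes passed by days 3 and 4. At an unadjusted p under 0.05 (limma) there were 2 of the 8 by each day, and 716 and 866 of the 11164 genes. Msc had the difference furthest from 0, -1.51 ± 0.41 by day 3 (adjusted p = 0.25).

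The other genes of the pathway were read through 5 lists: 22 satellite cell and myoblast genes, 11 partners of the bHLH factors and Mef2 genes, 20 inhibitors, 29 genes switched on in differentiating myoblasts and 28 genes of fusion and cadherin adhesion, counting those tested. In control muscle 12 of the 28 fusion and adhesion genes rose by day 3 and 2 fell, with a median of 0.44 against 0.09 over all genes, of which 20.1% rose and 14.2% fell. They included Adam12, a membrane protease of fusing myoblasts (2.83 ± 0.26), and Cdh2, N-cadherin (2.22 ± 0.24). Of the 22 satellite cell and myoblast genes 8 rose and 3 fell (median 0.41), with Ncam1, a neural cell adhesion molecule of regenerating muscle, at 3.16 ± 0.32 and the chemokine receptor gene Cxcr4 at 2.41 ± 0.26. Each of these 4 had an adjusted p of 2.4e-07 or less (limma).

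The 29 differentiation genes split: 11 rose and 10 fell by day 3 in control muscle (median -0.07). Those that rose most were Chrng, a subunit of the fetal acetylcholine receptor (4.999 ± 0.33), Tnnt2, cardiac troponin T, which is made in immature muscle (4.76 ± 0.23), Myh3, embryonic myosin (4.35 ± 0.32), and Myl4, an embryonic myosin light chain (3.83 ± 0.23). Among the 20 inhibitors 8 rose and 2 fell; Hes6, a bHLH gene that is itself active in differentiating myoblasts, rose by 2.77 ± 0.21 and Id2, which sequesters E-proteins, by 1.91 ± 0.25. Of the 11 partners 2 rose and 4 fell; Smarcd3, a muscle chromatin remodeling subunit, fell by 1.88 ± 0.22 and the acetyltransferase gene Kat2b by 1.38 ± 0.20. These 8 genes had adjusted p of at most 1.3e-05 (limma).

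On day 3, when Myog and Myod1 were higher in emerin KO than in control muscle, 11 of the 29 differentiation genes were lower and 1 was higher (median -0.49 against 0.00 over all genes, of which 8.92% were lower and 7.38% higher), with Myl1 at -2.54 ± 0.26, Igf2 at -2.13 ± 0.19, Myh8, perinatal myosin, at -1.80 ± 0.20 and Myl4 at -1.30 ± 0.21 (adjusted p = 3.1e-06, 3.6e-07, 6.6e-06 and 0.00023, limma). Of the 28 fusion and adhesion genes 11 were lower and 1 higher (median -0.47), led by Cdh11 (-2.62 ± 0.29) and Neo1 (-2.06 ± 0.32), and Adam12 was lower by 1.27 ± 0.24 (adjusted p = 6.8e-06, 0.00019 and 0.00095). Of the 22 satellite cell and myoblast genes 4 were higher and 2 lower, with the syndecan genes Sdc3 at 1.47 ± 0.25 and Sdc4 at 1.01 ± 0.34 (adjusted p = 0.00038 and 0.046). Of the 20 inhibitors 2 were higher and 1 lower, and of the 11 partners Mef2d was 0.54 ± 0.14 higher and Mef2a 0.74 ± 0.22 lower (adjusted p = 0.0089 and 0.027). After the Gapdh ratio was added as a covariate, 1 of the 29 differentiation genes was lower, and no gene of the other 4 lists passed, with 11, 5, 4, 0 and 3 at an unadjusted p under 0.05 (limma) in the order named here.

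On day 4, 4 of the 29 differentiation genes were higher in emerin KO than in control muscle and none was lower, against 2.58% of all genes higher: Chrng at 1.65 ± 0.30, Chrnd at 1.63 ± 0.37, Rapsn at 0.81 ± 0.20 and Chrna1 at 0.71 ± 0.15 (adjusted p = 0.0029, 0.013, 0.021 and 0.0074, limma). Chrng, Chrnd and Chrna1 encode subunits of the acetylcholine receptor, and Rapsn its anchoring protein. The list also holds Chrnb1, another subunit, and Musk, a receptor kinase of the neuromuscular junction, which did not pass (adjusted p = 0.36 and 0.81). Of the 110 genes in the 5 lists 14 passed, against 655 of all 11164 genes. At an unadjusted p under 0.05 (limma) there were 12 of the 28 fusion and adhesion genes, none of them higher. There were also 6 of the 22 satellite cell and myoblast genes (5 higher), 4 of the 20 inhibitors (3 higher) and 2 of the 11 partners (1 higher). Of all genes 2340 did so. Once the Gapdh ratio was fitted as a covariate none of the 29 passed, and 8 had an unadjusted p under 0.05 (limma). No gene of the other 4 lists passed with it. Within emerin KO muscle, 13 of the 29 rose between day 3 and day 4 and none fell, against 0.958% of all genes that rose, among them Myh8 (2.70 ± 0.18), Igf2 (1.96 ± 0.17) and Myl1 (1.81 ± 0.24; adjusted p = 9.3e-09, 4.2e-07 and 0.00011), and 11 rose with the covariate. In the covariate fit 72 of all 11164 genes rose. In lamin A/C KO muscle 4 of the 29 rose over the same interval and none fell, against 1.29% of all genes that rose, and 1 rose with the covariate (41 of all 11164 genes), with 14 at an unadjusted p under 0.05 (limma). Among the 4 were Lmod2 (1.20 ± 0.22) and Myh8 (1.18 ± 0.18) (adjusted p = 0.0047 and 0.0012). Between lamin A/C KO and control muscle none of the 110 genes in the 5 lists passed on day 3 or on day 4. At an unadjusted p under 0.05 (limma) there were 9 and 11 of them, and 809 and 540 of all 11164 genes.

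On day 0, 6 of the 29 differentiation genes were higher in lamin A/C KO than in control muscle and none was lower, where 0.896% of all genes passed in either direction, with Myl4 at 1.80 ± 0.21, Myh8 at 1.52 ± 0.20 and Tnnt2 at 1.46 ± 0.21 (adjusted p = 3.5e-05, 0.00016 and 0.00046, limma). In turn 5 were lower in emerin KO than in control muscle and none higher, against 2.03% of all genes lower, with Igf2 at -1.80 ± 0.21, Mybph at -1.74 ± 0.22 and Myh3 at -1.20 ± 0.32 (adjusted p = 2.4e-05, 5.3e-05 and 0.044). Both counts share the 2 control arrays. Between the knockouts 11 of the 29 were lower in emerin KO muscle and none higher, against 4.18% of all genes lower. On this day the summed signal of the 9 fibroblast and matrix genes was 38460 and 59790 on the emerin KO arrays against 80630 and 92520 on the control arrays, with 5 of 9 lower, and 69600 to 104000 on the lamin A/C KO arrays. The part of this in the differences was not tested.

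**Figure D5:**
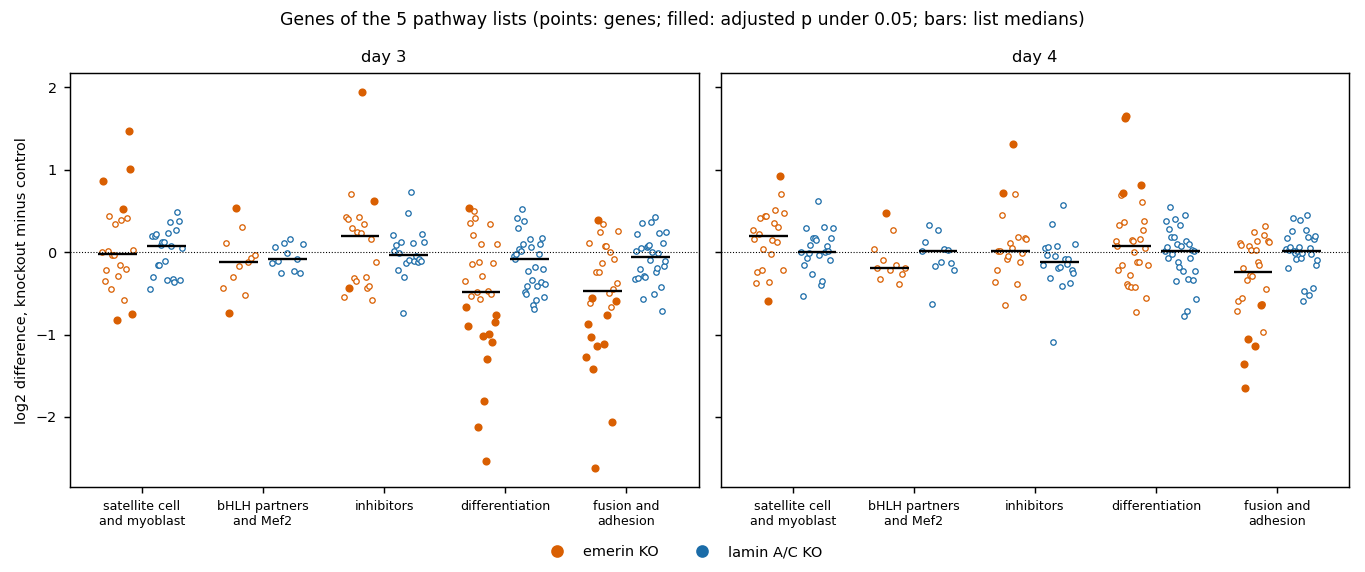
Knockout minus control difference in log2(signal + 32) for every tested gene of the 5 lists (points; filled where the adjusted p is under 0.05) on day 3 (left) and day 4 (right), with list medians as bars. On day 3 the emerin KO medians of the differentiation list (-0.49) and of the fusion and adhesion list (-0.47) lie below 0 and no lamin A/C KO point is filled on either day.

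For each of the 8 genes, the 3 tested genes with the most similar course were found by the root mean square (RMS) difference of the 9 group means, each gene centered on its own mean. Myod1 was closest to Lig1, a DNA ligase, F13a1, a coagulation factor subunit, and Cnot3 (RMS 0.117 to 0.118), and Cdh15 to Slc7a5, an amino acid transporter gene (0.152), Myod1 (0.157) and Plk1, a mitotic kinase (0.181). Myog was closest to Birc5, survivin, a gene of dividing cells (0.110), whose group means ran from 42.6 on emerin KO day 0 to 1947 on emerin KO day 3, then to Hmox1 (0.241) and Cib1 (0.247). Myf6 was closest to Actn2, Tpm1 and Smpx (0.247 to 0.284), and Mef2c to Irs1, Fgf13 and Tpm1 (0.199 to 0.210); Actn2 and Tpm1 encode sarcomere proteins, and Actn2 is also among the 16 fiber genes. Msc was closest to Glipr2, Jpt1 and F2r (0.276 to 0.306), Mymk to Ms4a6d, Tubb2b and Coro1a (0.226 to 0.267), and Myf5 to Ric8a, Antxr2 and Cavin3 (0.136 to 0.160). These are descriptions over 9 group means of the same arrays, with the same Gapdh ratios, and have no test. The median RMS over the tested genes was lowest for Myf5 (0.538) and highest for Mymk (1.825), so RMS values are not on the same footing across the 8 genes. What the similar genes have in common was not tested.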

How the data were processed

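Gene expression in gastrocnemius muscle was measured on 23 Affymetrix arrays in 9 genotype-by-day groups. The deposited intensities are MAS5 signals, per the submitters' processing notes, linear and not logged. They stood at a common level before deposit: each array's mean without its lowest and highest 2% was 150.04 to 150.06.

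Each array was rescaled by a factor of about 3.33 to a mean of 500, followed by log2(signal + 32). Of 22690 probe sets, 64 were controls, 691 named several genes, 1555 named none and 20380 named 1 gene in GEO's platform annotation; these gave 12393 genes, of which 4956 had several probe sets and were read by the brightest. The 11164 genes that reached 100 on 2 or more arrays were tested together in 1 limma fit (version 3.58.1, R 4.3.3, trended variance) over all 9 groups with 14 residual degrees of freedom, and p-values were adjusted by Benjamini-Hochberg over all of them. The fit gave 24 comparisons: 9 between days, 9 between genotypes and 6 of the change between genotypes. Counts over all genes at an unadjusted p under 0.05 were not taken in the fit with the Gapdh covariate. The limma fit was run on simulated data with known changes for some of the comparisons. The other steps were not tested in this way. No 2 arrays held identical values. The number of arrays limits the precision.

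The 8 genes, the 5 pathway lists and the marker lists were chosen with earlier results of these data known. The text names the 8 genes, Emd and Lmna, from each list up to 4 genes with the largest change among those past the threshold, and for each of the 8 genes the 3 most alike. Promoter windows are RefSeq's (GRCm38.p6) and were matched by symbol. Alternatives were quantile and median scaling, no filter, a pseudocount of 1 or of 100, averaging a gene's probe sets, no variance trend, the Gapdh ratio as a covariate, a replicate block, a fit to the compared groups alone, and leaving out each array. Leaving out an array of a group of 2 leaves 1, so a lost call cannot be told apart from the loss of the array.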

Additional observations from a re-analysis of the deposited data

Results flagged for a closer look

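In a test of the difference between the changes of emerin KO and control muscle from day 0 to day 3 (limma, adjusted over all genes), Myog had 2.188 ± 0.273, Cdh15 1.354 ± 0.234 and Myod1 1.066 ± 0.236, each rising more in emerin KO muscle. Myf6 had -1.87 ± 0.342 and Mef2c -1.143 ± 0.239, each falling further there. From day 0 to day 4 Myog had 1.48 ± 0.273. The Gapdh ratio was 3.62 to 6.09 on the emerin KO arrays of day 3 and 0.957 to 0.976 on the control arrays. On day 4 it was 1.40 to 5.30 and 0.932 to 1.23. The difference for Myog passed on both days with that ratio as a covariate (2.20 ± 0.37 and 1.49 ± 0.31). The other 4 did not pass on day 3 with it: Cdh15 and Myod1 had estimates near those without it and larger SE (1.45 ± 0.31 and 1.02 ± 0.32), and those of Myf6 and Mef2c moved toward 0 (-1.16 ± 0.41 and -0.71 ± 0.29). The Myog level on day 0, which enters both of its values, was 242 and 248 in emerin KO against 448 and 665 in control muscle. By day 4 Myog did not pass without control day 0 replicate 1 or control day 4 replicate 2, nor in a fit to the compared groups alone. By day 3 Myod1, Myf6 and Mef2c did not pass without control day 3 replicate 2.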

How the results depend on the processing

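No value of the 8 genes that passed changed sign under any alternative. Counts of the 8 genes that passed moved as follows, with the cause not tested. Quantile normalization gave 5 in place of 3 between emerin KO and lamin A/C KO muscle on day 0, and 3 in place of 1 for the emerin KO against control change to day 4. That last count was 2 with a pseudocount of 1 and 2 with the mean of all probe sets. Median scaling gave 2 in place of 4 for lamin A/C KO, day 4 against day 3; it moved the median of all genes by more than 0.1 in 6 comparisons, at most 0.179. With the Gapdh ratio as a covariate 0 passed between emerin KO and control or lamin A/C KO muscle on days 3 and 4, with 5, 3, 3 and 2 at an unadjusted p under 0.05 (limma; emerin KO against control on day 3, against lamin A/C KO on day 3, and the same on day 4), 1 for the emerin KO against control change to day 3, and 1 for lamin A/C KO, day 4 against day 3. Fitting only the compared groups, which leaves fewer arrays to estimate the spread, gave 3 for emerin KO, day 4 against day 3, 0 for emerin KO against control on day 0 and 1 on day 4, 1 for emerin KO against lamin A/C KO on day 0, and 2 and 0 for the emerin KO against control changes to days 3 and 4. An alternative chosen after seeing the data left out the 2 emerin KO day 4 arrays with a ratio over 2, which leaves 1 array in that group. Fewer genes passed for emerin KO, day 4 against day 3, on day 4 against control and lamin A/C KO, and for the change to day 4. That cannot be told apart from the loss of arrays. Leaving out 1 array gave 0 to 1 for emerin KO against control on day 0, 0 to 4 on day 4, 2 to 5 and 0 to 2 for its changes to days 3 and 4, 1 to 2 and 2 to 4 for emerin KO against lamin A/C KO on days 0 and 4, and 3 to 5 and 2 to 3 for day 4 against day 3 in emerin KO and lamin A/C KO muscle.

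Of 192 values of single genes, the replicate block kept 187 on their side of the threshold, as did quantile normalization for 186 and the Gapdh covariate for 167. The samples share only a replicate number: deviations of 82 same-numbered pairs from their group means had a median correlation of 0.024 (-0.301 to 0.394), against -0.019 over 152 other pairs. The block moved no count by over 1.5 times: Myod1 in lamin A/C KO muscle, day 4 against day 3, no longer passed (adjusted p = 0.051), nor did Cdh15 between emerin KO and lamin A/C KO on day 0 (0.068). Signal over background limits Myf5, whose arrays of day 0 were all under 100.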
